A study of Mus musculus with 9 samples.

Results

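The Krüppel-like factor genes *Klf2*, *Klf3*, *Klf4*, *Klf5*, *Klf6*, *Klf7*, *Klf9*, *Klf10*, *Klf11* and *Klf13* were followed in naïve mouse embryonic stem cells (mESCs), in primed epiblast stem cells (mEpiSCs) and in mouse embryonic fibroblasts (MEFs). They were taken by gene symbol and make up 10 of the 54232 genes counted. Poly(A) RNA was sequenced from naïve mESCs of a C57 x CBA background (the OG2 line, which carries a GFP reporter under the distal promoter of *Oct4*), grown in serum with LIF. Primed mEpiSCs had been converted from these cells in medium with bFGF and Activin A, and both states were sampled at passage 5 (P5) and passage 15 (P15), with 2 libraries for each state and passage. Both states derive from 1 line and both were kept on feeder layers of MEFs treated with mitomycin C, and MEFs gave 1 further library with no replicate. The study calls the libraries of a group biological repeats. Whether these were separate cultures of the line is not given in the sources used here, and p-values measure the spread between the 2 libraries of a group.

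Krüppel-like factors are transcription factors with zinc fingers at the C-terminal end that bind GC-rich and CACCC-type DNA, and their N-terminal parts recruit coactivators or corepressors. *Klf2*, *Klf4* and *Klf5* are known for sustaining self-renewal of naïve mESCs, where *Klf4* lies downstream of LIF and STAT3 signalling. *Klf9*, *Klf10*, *Klf11* and *Klf13* bind the corepressor Sin3a, and *Klf3* represses through CtBP. *Klf2*, *Klf4*, *Klf6* and *Klf10* are also known as genes that growth factors or serum induce within a short time.

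Libraries of naïve and primed cells held 14378051 to 20985136 counts and the MEF library 25646547. Levels are given in CPM, counts per 1000000 counts of the library, with TMM scaling across the 9 libraries, and 3 counts correspond to 0.148 to 0.221 CPM in naïve and primed libraries. All 6 naïve markers examined were higher in every naïve library than in any primed library, and all 6 primed markers were the reverse. RNA of fibroblast type was present in all of them, as none of 30 fibroblast markers was at 0 in any library. Their summed level was 10110 to 10144 CPM in naïve cells at P5, 6400 to 6542 CPM in primed cells at P5, 16661 to 17355 CPM in naïve cells at P15 and 15610 to 16243 CPM in primed cells at P15, against 82435 CPM in MEFs. The median marker lay at 15.1% to 25.2% of its MEF level across the naïve and primed libraries. In these bulk samples fewer cells of a type and less RNA per cell cannot be told apart.

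The start regions of the genes are shown for the pair that fell most between the states, *Klf2* and *Klf4*, and for *Klf13*, which changed least. RefSeq windows on GRCm38, from 250 bases before to 50 bases after the annotated start, were found for 8 of the 10 genes, all but *Klf5* and *Klf10*. The GC box GGGCGG, the kind of site that Sp and Krüppel-like factors bind, was in 7 of these 8 windows on 1 or the other strand, and in 35.7% of all windows of this length. The letters CACCC were in 5 of the 8 and in 57.5% of all windows. The 8 windows were 58.3% to 77.7% G or C, and windows of like content were not compared. That of *Klf7*, chr1:64121340-64121639, lies inside the gene as annotated in GENCODE M21. Below, each run is written 5′ to 3′ on the strand of its gene and ends before the first transcribed base of GENCODE M21, with GGGCGG and CACCC on either strand in capitals, where neighbouring matches may overlap. The windows are chr8:72318812-72319032 on the plus strand for *Klf2*, chr4:55532476-55532725 on the minus strand for *Klf4* and chr7:63938916-63939165 on the minus strand for *Klf13*.
Klf2: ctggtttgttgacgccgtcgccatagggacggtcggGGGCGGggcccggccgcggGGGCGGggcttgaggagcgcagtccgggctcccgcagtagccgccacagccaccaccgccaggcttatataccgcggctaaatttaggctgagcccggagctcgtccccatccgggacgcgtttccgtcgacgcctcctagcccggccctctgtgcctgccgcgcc
Klf4: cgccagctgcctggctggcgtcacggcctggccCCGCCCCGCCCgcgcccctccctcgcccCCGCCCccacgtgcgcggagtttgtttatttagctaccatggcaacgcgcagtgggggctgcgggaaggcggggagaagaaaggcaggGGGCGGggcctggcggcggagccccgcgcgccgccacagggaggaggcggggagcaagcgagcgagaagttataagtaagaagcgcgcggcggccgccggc
Klf13: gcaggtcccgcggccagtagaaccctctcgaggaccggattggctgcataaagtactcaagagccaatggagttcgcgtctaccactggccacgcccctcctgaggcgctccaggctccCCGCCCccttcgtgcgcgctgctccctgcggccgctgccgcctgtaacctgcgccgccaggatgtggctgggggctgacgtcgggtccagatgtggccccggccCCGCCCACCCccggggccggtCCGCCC
GGGCGG occurred 2 times in the whole window of *Klf2*, 4 times in that of *Klf4* and 3 times in that of *Klf13*, and *Klf9* was the gene without it. Whether these letters bear on the levels was not tested.

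Which members distinguished the states was examined by comparing primed with naïve cells at each passage. Primed cells had less RNA of 8 members and more of 2 at P5, at an adjusted p under 0.01 in edgeR's quasi-likelihood test. Among all 16482 genes tested at P5, 31.1% were lower and 31.2% were higher by the same rule. At P15, 9 genes were lower and none was higher, against 28.4% lower and 28.2% higher among 15733 genes. A fall of at least 2-fold was called for 5 genes at P5, where 8.85% of all genes fell as far, and for 6 genes at P15, where 11.0% did. The median log2 fold change of the 10 genes was -1.14 at P5 and -1.47 at P15, and that of all genes tested was 0.0078 and -0.0039.

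**Figure D1:**
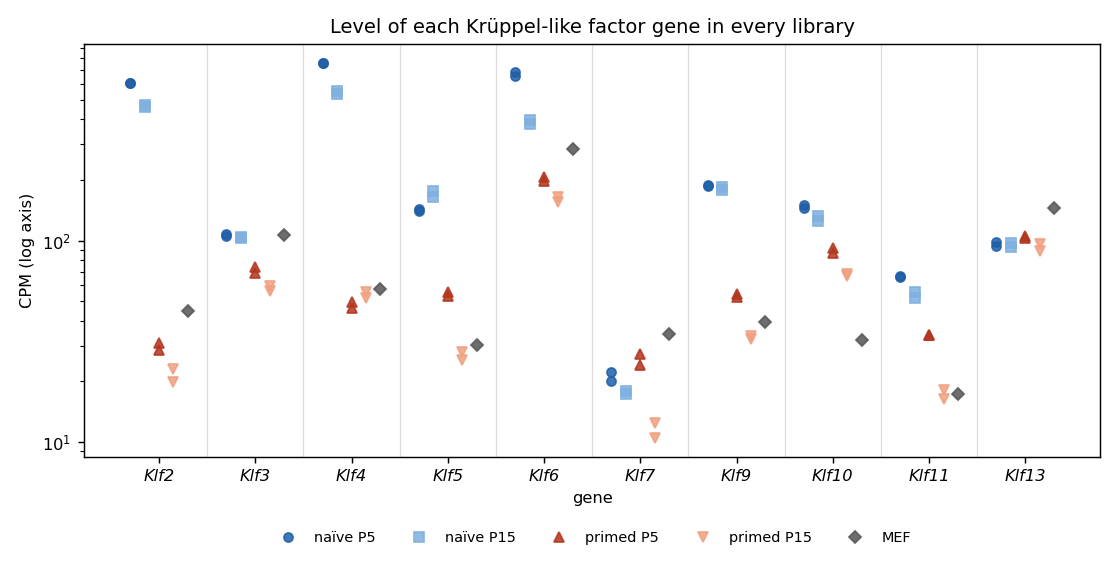
Level of each gene in each library, in CPM on a log axis, with 1 point per library and the groups marked by colour and shape. *Klf2* and *Klf4* fell from 459 CPM or more in every naïve library to 55.8 CPM or less in every primed library, whereas the points of *Klf13* lay between 88.5 and 104.8 CPM in all 8.

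*Klf2* (GRCm38 chr8:72319033-72321656, plus strand), a factor of naïve mESCs that is also known from endothelium and resting T cells, was at 604 and 605 CPM in naïve cells and at 31.0 and 28.8 CPM in primed cells at P5. At P15 it was at 469 and 459 CPM in naïve cells and at 23.0 and 19.9 CPM in primed cells. All 4 primed libraries were below the MEF library, at 44.6 CPM, and all 4 naïve libraries were far above it. Its log2 fold change was -4.30 ± 0.045 (SE, adjusted p = 1.35e-33) at P5 and -4.45 ± 0.074 (adjusted p = 3.22e-34) at P15, so that primed cells kept 4.94% and 4.62% of the naïve level.

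*Klf4* (chr4:55527143-55532466, minus strand), one of the factors used for reprogramming, was at 762 and 761 CPM in naïve cells and at 46.2 and 49.6 CPM in primed cells at P5. At P15 it was at 551 and 535 CPM in naïve cells and at 52.05 and 55.8 CPM in primed cells, close to the 57.6 CPM of MEFs. The naïve and primed libraries were separated by a wide gap at both passages. The log2 fold change was -3.96 ± 0.043 (adjusted p = 1.83e-33) at P5 and -3.34 ± 0.065 (adjusted p = 2.19e-32) at P15.

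*Klf5* (chr14:99298691-99315036, plus strand), needed for the inner cell mass and trophectoderm of the blastocyst, fell less than *Klf2* and *Klf4* at both passages. It was at 144 and 140 CPM in naïve and at 53.4 and 55.5 CPM in primed cells at P5, and at 175 and 165 CPM in naïve and 25.4 and 28.1 CPM in primed cells at P15. Primed cells thus held 38.3% of the naïve level at P5 and 15.7% at P15, and at P15 both of their libraries were below the 30.2 CPM of MEFs. Primed against naïve cells, it changed on the log2 scale by -1.35 ± 0.048 (adjusted p = 1.21e-20) at P5 and -2.68 ± 0.075 (adjusted p = 2.38e-27) at P15.

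The level expected from RNA of MEFs bears on these low values. If each library held the median marker share of the MEF RNA, this would account for 22.8% of the *Klf2* level in primed cells at P5 and for 50.8% at P15, and for 18.4% and 26.1% of that of *Klf4*. With this share subtracted from the counts, *Klf2*, *Klf4* and *Klf5* remained called at both passages, and the log2 fold change of *Klf2* at P15 was -5.33. Markers differed widely in their ratio to MEFs, from 0.457% for *Ogn* in a primed library at P5 to 354% for *Dcn* in a primed library at P15, so this share is a rough estimate.

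*Klf6* (chr13:5861482-5870394, plus strand), a broadly expressed factor induced by serum and injury, was the member with the highest level in primed cells. It was at 687 and 657 CPM in naïve and 196 and 207 CPM in primed cells at P5, and at 396 and 380 CPM in naïve and 156 and 165 CPM in primed cells at P15. All primed libraries were below the 286 CPM of MEFs and all naïve libraries above it. The log2 fold change was -1.71 ± 0.037 (adjusted p = 7.69e-26) at P5 and -1.28 ± 0.059 (adjusted p = 1.41e-20) at P15.

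Of the genes whose products bind Sin3a, *Klf9*, *Klf10* and *Klf11* fell and *Klf13* did not. *Klf9* (chr19:23141226-23168134, plus strand), a target of glucocorticoid and thyroid hormone receptors, was at 189 and 187 CPM in naïve and 54.0 and 52.4 CPM in primed cells at P5. At P15 *Klf9* was at 184 and 178 CPM in naïve and 33.5 and 32.3 CPM in primed cells. Naïve libraries of both passages lay between 178 and 189 CPM, and primed libraries lay above the 39.4 CPM of MEFs at P5 and below it at P15. The log2 fold change of *Klf9* was -1.79 ± 0.046 (adjusted p = 3.79e-24) at P5 and -2.47 ± 0.071 (adjusted p = 5.01e-27) at P15.

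*Klf10* (chr15:38291463-38300706, minus strand), an early target gene of TGF-β, was at 145 and 151 CPM in naïve and 86.7 and 91.7 CPM in primed cells at P5, and at 132 and 124 CPM in naïve and 66.4 and 68.1 CPM in primed cells at P15. All of these libraries were above the 32.2 CPM of MEFs. Primed against naïve cells, it changed on the log2 scale by -0.70 ± 0.045 (adjusted p = 2.33e-14) at P5 and -0.94 ± 0.067 (adjusted p = 6.36e-15) at P15.

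*Klf11* (chr12:24651274-24662789, plus strand), the close relative of *Klf10*, was at 66.7 and 66.2 CPM in naïve and 34.2 and 33.9 CPM in primed cells at P5. At P15 *Klf11* was at 55.6 and 51.7 CPM in naïve and 18.1 and 16.3 CPM in primed cells, on both sides of the 17.4 CPM of MEFs. Both primed libraries at P15 were below both at P5, and all 4 were below all naïve libraries. The log2 fold change was -0.93 ± 0.060 (adjusted p = 2.24e-14) at P5 and -1.65 ± 0.095 (adjusted p = 1.39e-17) at P15.

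*Klf13* (chr7:63886351-63938915, minus strand), known from T cells and the heart, was at 98.8 and 93.6 CPM in naïve and 102.5 and 104.8 CPM in primed cells at P5. At P15 it was at 97.1 and 92.7 CPM in naïve and 88.5 and 95.7 CPM in primed cells, where the states overlapped. MEFs, at 144 CPM, were above all 8. The log2 fold change of *Klf13* was 0.14 ± 0.046 (adjusted p = 0.00858) at P5, and the call was kept in 4 of 13 alternatives and lost when any 1 of the 4 libraries was left out, with 0.077 (adjusted p = 0.224) without naïve P5 replicate 2. At P15 it was -0.05 ± 0.068 (adjusted p = 0.503), and its sign turned to 0.052 when library sizes were not corrected by TMM and to 0.028 without primed P15 replicate 1.

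*Klf3* (chr5:64803388-64832901, plus strand), a repressor known from erythroid cells and fat, was at 107.6 and 105.9 CPM in naïve and 68.8 and 73.5 CPM in primed cells at P5. At P15 it was at 103.4 and 103.5 CPM in naïve and 56.5 and 59.3 CPM in primed cells. Naïve cells were thus at nearly the MEF level of 106.5 CPM. Primed against naïve cells, it changed on the log2 scale by -0.55 ± 0.049 (adjusted p = 2.51e-11) at P5 and -0.85 ± 0.069 (adjusted p = 2.34e-13) at P15, and neither reached 2-fold. The median marker share would account for 44.9% of its level in primed cells at P15, and with it subtracted the log2 fold change at P15 was -1.28 (adjusted p = 1.06e-06), which is past 2-fold. An exon of the antisense gene *Gm20033* overlaps *Klf3*, and without a stated strand setting their reads cannot be told apart, though *Gm20033* had 5 to 26 counts per library.

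*Klf7* (chr1:64029447-64122282, minus strand), known from neurons and the member with the lowest level per length in naïve and primed cells, was called in opposite directions at P5 and P15. It was at 22.4 and 20.04 CPM in naïve and 27.4 and 24.2 CPM in primed cells at P5, and at 17.4 and 17.9 CPM in naïve and 12.5 and 10.5 CPM in primed cells at P15. Its log2 fold change was 0.32 ± 0.090 (adjusted p = 0.00265) at P5 and -0.63 ± 0.133 (adjusted p = 8.23e-05) at P15. The call at P5 was kept in 9 of 13 alternatives. It was lost with DESeq2's Wald test (0.31, adjusted p = 0.0404) and without a low-count filter in edgeR's test (0.31, adjusted p = 0.0294). It was also lost without naïve P5 replicate 2 (0.22) and without primed P5 replicate 1 (0.25). MEFs had 34.5 CPM, and their median marker share would account for 73.7% of the *Klf7* level in primed cells at P15. With it subtracted, the log2 fold change at P15 was -1.76.

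**Figure D2:**
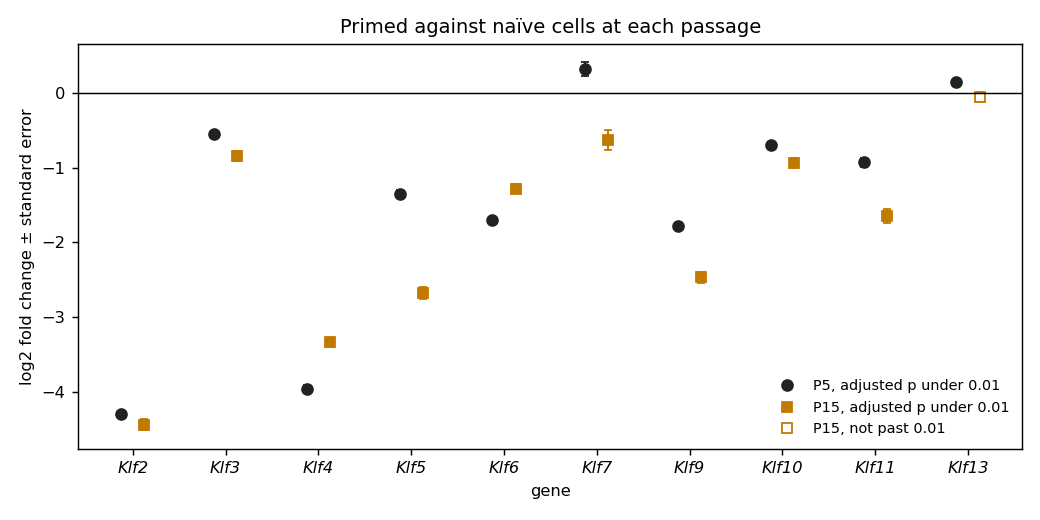
Log2 fold change of primed against naïve cells for each gene at P5 (circles) and P15 (squares), with standard errors as bars and open symbols for an adjusted p of 0.01 or more. *Klf4* and *Klf6* lay nearer to 0 at P15 than at P5, while *Klf5*, *Klf7*, *Klf9* and *Klf11* lay lower at P15.

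Whether the difference between the states changed from P5 to P15 was tested by the interaction of state and passage over the 8 naïve and primed libraries. It was called for 7 of the 10 genes, 2 with a higher and 5 with a lower value at P15, against 13.3% higher and 10.8% lower among 16926 genes. For *Klf4* the change was 0.63 ± 0.072 (adjusted p = 2.32e-08) and for *Klf6* it was 0.44 ± 0.066 (adjusted p = 3.14e-06), so the gap between the states narrowed on the log2 scale. For *Klf5* it was -1.31 ± 0.088 (adjusted p = 2.19e-13), and primed cells moved further below naïve cells. *Klf7* changed by -0.93 ± 0.156 (adjusted p = 1.83e-05), *Klf11* by -0.70 ± 0.109 (adjusted p = 6.08e-06) and *Klf9* by -0.67 ± 0.081 (adjusted p = 8.02e-08). The change of *Klf3*, -0.28 ± 0.082 (adjusted p = 0.00863), was kept in 5 of 15 alternatives and was lost without any 1 of 6 libraries, the exceptions being primed P5 replicate 1 and primed P15 replicate 2.

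The fibroblast markers moved with passage as well, and 19 of the 30 had a higher and 2 a lower state difference at P15. With their median share subtracted, *Klf3*, *Klf4*, *Klf5*, *Klf7*, *Klf9* and *Klf11* stayed called, while *Klf6* did not (0.21, adjusted p = 0.106). The value of *Klf7* was then -2.19 (adjusted p = 5.87e-05), beyond the -1.52 of *Klf5*, and that of *Klf3* was -0.59 (adjusted p = 0.000978). By the same subtraction *Klf2*, at -0.12 (adjusted p = 0.284) in the counts as deposited, became -0.63 (adjusted p = 0.00129).

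Within each state, the passages were then compared directly. These comparisons share their libraries with those between the states. In naïve cells *Klf2*, *Klf4*, *Klf6* and *Klf11* were lower at P15 and *Klf5* was higher, that is 4 genes lower and 1 higher, against 5.01% and 4.21% of 15683 genes. The log2 fold change of *Klf6* was -0.79 ± 0.043 (adjusted p = 7.24e-08), that of *Klf4* was -0.49 ± 0.039 (adjusted p = 2.55e-06) and that of *Klf2* was -0.38 ± 0.039 (adjusted p = 2.29e-05). *Klf5* rose by 0.26 (adjusted p = 0.00273), a call kept in 10 of 12 alternatives and lost without naïve P5 replicate 2. *Klf11* fell by 0.31 on the log2 scale (adjusted p = 0.00408), a call kept in only 7 of 12 alternatives. Among others it was lost without naïve P15 replicate 2. *Klf10* was not called at -0.20 (adjusted p = 0.0153), and was called without naïve P15 replicate 1 (adjusted p = 0.00441). Thus 3 of the 5 genes called changed whichever library was left out.

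In primed cells 9 of the 10 genes were lower at P15 and none was higher, against 22.8% lower and 24.3% higher among 15957 genes. *Klf4* was the exception, at 0.14 ± 0.070 (adjusted p = 0.0877). A fall of at least 2-fold was called for 3 genes, *Klf7*, *Klf5* and *Klf11*, where 8.43% of all genes fell as far. Their log2 fold changes were -1.20 ± 0.110 (adjusted p = 4.54e-10), -1.06 ± 0.077 (adjusted p = 5.29e-12) and -1.02 ± 0.091 (adjusted p = 3.11e-10). The values were -0.72 for *Klf9*, -0.51 for *Klf2*, -0.44 for *Klf10*, -0.36 for *Klf6* and -0.33 for *Klf3*, each with an adjusted p of 9.51e-05 or less. *Klf13* fell by 0.20 (adjusted p = 0.00430), a call lost without primed P5 replicate 1 or 2 or primed P15 replicate 1. Of the fibroblast markers 25 of 30 rose and 1 fell in the same comparison. More MEF RNA would move each gene towards its MEF level, which lowers genes above that level and raises genes below it. Its part in these changes was not tested. *Klf5*, *Klf9*, *Klf10* and *Klf11* were above MEFs in primed cells at P5, and *Klf2*, *Klf3*, *Klf4*, *Klf6*, *Klf7* and *Klf13* were below. With the median share of the fibroblast markers subtracted the same 9 genes stayed called. The values were then -2.61 for *Klf7*, -0.99 for *Klf2*, -0.67 for *Klf6*, -0.65 for *Klf3* and -0.39 for *Klf13*.

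**Figure D3:**
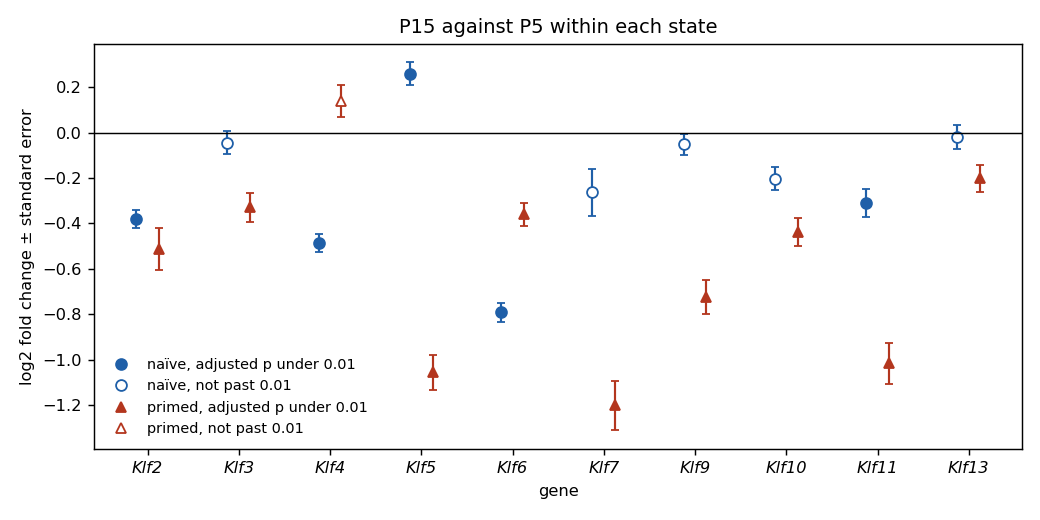
Log2 fold change of P15 against P5 in naïve cells (circles) and primed cells (triangles), with standard errors as bars and open symbols for an adjusted p of 0.01 or more. In primed cells 9 genes lay below 0, and in naïve cells *Klf5* was the gene called above 0, at 0.26.

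Levels were compared between genes per length, as CPM per kb of annotated exon. In naïve cells the order was led by *Klf2*, at 327 ± 0.192 (SD, n = 2) CPM per kb at P5, then *Klf4* at 250 ± 0.260 and *Klf6* at 153 ± 4.82. These 3 genes kept their order at P15, at 251 ± 3.80, 178 ± 3.50 and 88.3 ± 2.64. In primed cells *Klf6* stood first, at 45.9 ± 1.68 CPM per kb at P5 and 36.5 ± 1.49 at P15. It was followed at P5 by *Klf10* at 21.3 ± 0.841, with *Klf2* at 16.2 ± 0.832 and *Klf4* at 15.7 ± 0.782, whose libraries overlapped. At P15 it was followed by *Klf4* at 17.7 ± 0.880 and *Klf10* at 16.1 ± 0.281, and *Klf2* overlapped with *Klf13*, and *Klf3* with *Klf5*. The order below *Klf6* in primed cells rests on the length used. The longest transcript of *Klf10* has 3044 bases against 4179 in its exons, and that of *Klf4* has 3029 against 3049. By that length *Klf10* would stand above *Klf4* at P15, and the P15 overlaps of *Klf2* with *Klf13* and of *Klf3* with *Klf5* would not remain. *Klf2* would then overlap with *Klf3* at P15, and *Klf2* and *Klf4* would still overlap at P5. *Klf7* was last in naïve and primed cells at both passages, between 1.41 and 3.17 CPM per kb.

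The sum over the 10 genes was 872 ± 5.64 CPM per kb in naïve and 152 ± 2.72 in primed cells at P5, and 655 ± 14.5 in naïve and 117 ± 2.05 in primed cells at P15, with 167 in MEFs. *Klf2*, *Klf4* and *Klf5* together made up 69.3% ± 0.389 of it in naïve cells at P5 and 70.5% ± 0.235 at P15. In primed cells they made up 27.9% ± 0.345 at P5 and 29.5% ± 0.447 at P15, and in MEFs 29.3%. By this share primed cells were near MEFs. Their libraries also held RNA of fibroblast type, and the makeup with its share subtracted was not computed. The genes differed in detail, since *Klf10* made up 14.1% ± 0.302 of the sum in primed cells at P5 and 4.63% in MEFs, and *Klf6* made up 30.2% ± 0.565 and 39.0%. At P5 both primed libraries were below MEFs for 6 of the 10 genes, and at P15 for 8. MEFs had 1 library, and the same count was not made over all genes, so whether these counts are unusual was not tested.

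**Figure D4:**
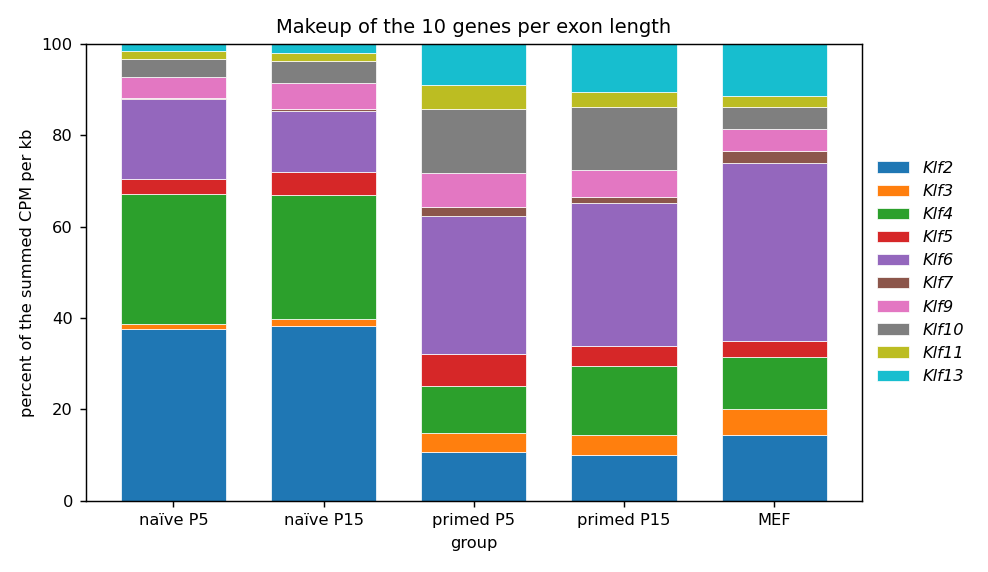
Share of each gene in the summed CPM per kb of the 10 genes, in percent, as stacked bars of the group means (2 libraries per group, 1 for MEF). *Klf2* and *Klf4* fill 66.2% of the naïve P5 bar and 21.0% of the primed P5 bar, where *Klf6*, *Klf10* and *Klf13* take more.

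The other Krüppel-like and Sp genes were examined next, and then genes that act with or upstream of the family. Counts of primed against naïve cells over these lists stand beside the shares of all genes tested. These were 31.2% higher and 31.1% lower at P5 and 28.2% higher and 28.4% lower at P15. For P15 against P5 the shares were 4.21% higher and 5.01% lower in naïve cells, and 24.3% higher and 22.8% lower in primed cells. For the change in the state difference they were 13.3% higher and 10.8% lower. Of 16 other Krüppel-like and Sp genes, 12 were tested, and *Klf1*, *Klf14*, *Klf17* and *Sp6* had too few counts. Primed cells had 3 of them higher and 5 lower at P5, the median log2 fold change being -0.18, and at P15 they had 3 higher and 6 lower, with a median of -0.081. *Klf8*, a repressor of the CtBP-binding group like *Klf3*, changed by -1.47 ± 0.132 (adjusted p = 4.54e-11) at P5 and -2.09 ± 0.166 (adjusted p = 1.18e-13) at P15. *Klf16*, of the Sin3a-binding group, changed by -1.09 ± 0.055 (adjusted p = 6.09e-17) and -0.90 ± 0.075 (adjusted p = 4.39e-13). *Klf15*, *Sp5* and *Sp8* rose, the latter a pair of genes linked to Wnt signalling, at levels of 11.8 CPM or less, where *Klf15* gained 1.09 at P5 and 1.36 at P15 (adjusted p = 1.32e-05 and 2.47e-06). *Sp5* gained 1.84 at P5 and 0.70 at P15 (adjusted p = 4.52e-11 and 0.000339), and *Sp8* gained 1.60 and 1.72 (adjusted p = 1.61e-05 and 1.30e-08).

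Of 9 genes of the Sin3 and CtBP corepressor complexes, primed cells had 1 higher and 5 lower at P5, and 4 higher and 4 lower at P15. *Ctbp2*, the partner of *Klf3*, changed by -1.16 ± 0.040 (adjusted p = 9.05e-21) at P5 and -1.05 ± 0.060 (adjusted p = 9.99e-18) at P15. *Sap30*, a Sin3 subunit, changed by -1.19 (adjusted p = 2.39e-15) and -0.80 (adjusted p = 2.41e-11), and *Sin3b* rose by 0.53 (adjusted p = 1.90e-11) and 0.61 (adjusted p = 2.43e-10).

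The ubiquitin ligases and other factors that turn Krüppel-like proteins over gave 2 higher and 3 lower of 9 genes at P5, and 1 higher and 4 lower at P15. *Fbxo32* was at 0.13 (adjusted p = 0.281) at P5 and fell by 1.01 (adjusted p = 7.26e-08) at P15. *Fbxw7* changed by -0.41 (adjusted p = 3.92e-06) and -0.34 (adjusted p = 0.000793), and *Wwp2* by -0.42 (adjusted p = 4.62e-07) and -0.33 (adjusted p = 0.000365).

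Signalling genes upstream of the family were listed by the media in use. Of 7 genes of the LIF and STAT3 pathway, primed cells had 2 higher and 3 lower at P5, and 3 higher and 2 lower at P15. *Lifr*, the LIF receptor, changed by -0.94 (adjusted p = 1.99e-12) and -1.39 (adjusted p = 7.06e-15), whereas the kinase gene *Jak2* rose by 0.82 (adjusted p = 5.80e-11) and 0.91 (adjusted p = 6.91e-11) and the phosphatase gene *Ptpn11* by 0.44 (adjusted p = 3.79e-11) and 0.41 (adjusted p = 2.01e-07). Of 10 genes of the TGF-β and activin pathway, 8 were higher and 1 lower at P5, and 5 were higher and 2 lower at P15. The signal transducer gene *Smad3* rose by 0.89 (adjusted p = 7.96e-16) and 0.92 (adjusted p = 1.33e-13) and the receptor gene *Tgfbr1* by 0.80 (adjusted p = 4.75e-13) and 0.76 (adjusted p = 8.98e-11). *Smad7*, an inhibitor that the pathway induces, changed by -1.41 (adjusted p = 8.12e-20) and -0.51 (adjusted p = 1.64e-08).

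All 13 other genes of the naïve network were lower in primed cells at both passages, with a median log2 fold change of -2.60 at P5 and -4.39 at P15. *Zfp42* was at 17.6 and 17.0 CPM in primed cells at P5 and at 0.230 and 0.227 CPM, or 4 counts in each library, at P15, against 206 to 232 CPM in naïve cells. *Nr0b1* went from 6.56 and 4.83 CPM to 0.402 and 0 CPM, and *Nr5a2*, which can replace Oct4 in reprogramming, from 5.22 and 5.16 CPM to 0.287 and 0.227 CPM. Between these passages of primed cells 8 of the 13 fell, 2 rose and 3 were not called. *Klf4*, which was not called either, was at 52.05 and 55.8 CPM in primed cells at P15.

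Since several members are induced like immediate early genes, 15 such genes were examined beside them. At P5, 14 were lower and 1 was higher in primed cells, with a median of -2.01, and at P15, 11 were lower and 2 higher, with a median of -0.58. In naïve cells 13 of the 15 were lower at P15 than at P5 and none was higher, and in primed cells 10 were higher and 1 was lower. The state difference changed upwards from P5 to P15 for 12 and downwards for none. *Fos*, whose product forms the factor AP-1 with Jun proteins, was at 877 and 842 CPM in naïve and 14.1 and 14.3 CPM in primed cells at P5, and at 531 and 501 CPM in naïve and 236 and 256 CPM in primed cells at P15. *Fosb*, its relative, was at 1303 and 1292 CPM and at 3.13 and 3.27 CPM at P5, and at 656 and 635 CPM and at 103 and 111 CPM at P15. Both thus returned in part in primed cells at P15, where *Klf2*, *Klf6* and *Klf10* were lower than at P5 and *Klf4* was not called.

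The genes whose profiles were most like those of *Klf2*, *Klf4* and *Klf5* were found by the root mean square difference of log2(CPM + 1), centred for each gene, over the 8 naïve and primed libraries among 10000 genes. This is a description, as all profiles come from the same libraries. Nearest to *Klf4* were *Atf3*, *Nr4a1* and *Nr4a3*, at 0.220, 0.306 and 0.323, against a median of 1.81 over all genes, and all 3 are known as genes induced by stress or growth factors. *Atf3* was at 138 and 144 CPM in naïve and 9.34 and 10.6 CPM in primed cells at P5, and at 79.99 and 80.07 CPM in naïve and 7.63 and 8.86 CPM in primed cells at P15. Nearest to *Klf2* were *Nefh*, *Nphs1* and *Nr4a3*, at 0.331, 0.348 and 0.366 against a median of 2.17, and *Klf4* stood at rank 5. The 1 added to CPM damps changes at low levels. In primed cells at P5 and P15 *Nefh* had means of 0.908 and 0.628 CPM. *Nphs1* had 4.67 and 1.26 CPM, and *Nr4a3* 2.81 and 1.43 CPM. The log2 fold changes of *Nefh* at P5 and P15 were -4.88 and -5.83, against -4.30 and -4.45 for *Klf2*. Nearest to *Klf5* were *Arid5b*, *Palm3* and *Zfp992*, at 0.152, 0.158 and 0.165 against a median of 1.07, and *Klf9* stood at rank 5.

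**Figure D5:**
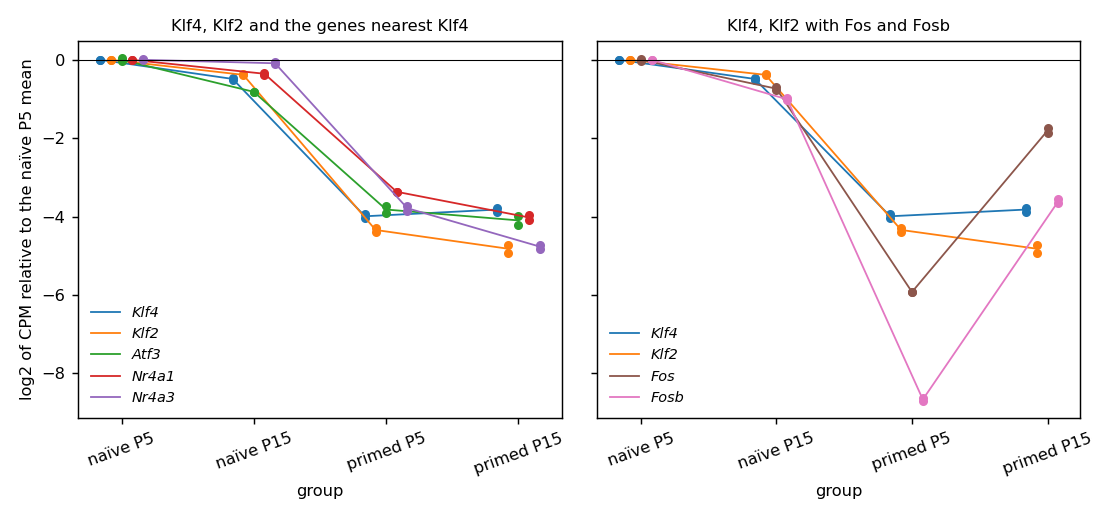
Level of each gene as log2 of its CPM relative to its mean in naïve cells at P5, with 1 point per library and lines through the group means. At the left *Atf3*, *Nr4a1* and *Nr4a3* lie far lower in primed than in naïve cells, as *Klf4* and *Klf2* do. From P5 to P15 in primed cells *Klf4* goes from 47.9 to 53.9 CPM, *Nr4a1* from 45.7 to 29.0 and *Nr4a3* from 2.81 to 1.43. At the right *Fos* and *Fosb* fall further in primed cells at P5 and rise again at P15, where *Fos* reaches 246 CPM.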

How the data were processed

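RNA-seq of 9 libraries was used, 2 for each state at each of P5 and P15 and 1 of MEFs, grouped by the deposited sample titles. The authors deposited raw counts per Ensembl gene, made from poly(A) libraries (NEBNext Ultra, Illumina HiSeq) using Cutadapt for trimming, HISAT2 for alignment (mm10) and featureCounts. HISAT2 was set to report several alignments of a read where found, and how featureCounts treated such reads, its strand setting and the annotation release are not given in the sources used here. Such settings can move counts between overlapping genes or near copies. Of 54232 gene IDs, 54165 had a name. The 67 others held at most 0.00527% of a library, and 92 spike-in entries were at 0 and left out.

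Libraries were scaled together by TMM for CPM, and each SD is over 2 libraries. A level per kb is CPM divided by the union of exons in GENCODE M21 (GRCm38). Comparisons used edgeR 4.0.16 (quasi-likelihood test, two-sided, TMM) in R 4.3.3 with limma 3.58.1, over genes with at least 10 counts in at least 2 libraries of the fit, with Benjamini-Hochberg adjustment over all genes tested. Calls were made at an adjusted p under 0.01, and the state comparisons fitted 4 libraries, the interaction 8. MEFs entered no fit. Replicates differed by more than counting noise, with a chi-square per gene of 2.10 to 3.28. Limits from 3 counts cover counting error only.

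Alternatives were DESeq2 1.42.0 (size factors and Wald test), no low-count filter, library size alone, a replicate block, one fit to the 8 naïve and primed libraries, subtraction of the median or lowest fibroblast marker ratio times the MEF counts, each library left out in turn and, for levels per length, the longest transcript. A block with crossed pairs was added after seeing the data. The code was tested on simulated data. The 10 genes and the gene lists were chosen with earlier results of these data known. From each other list the text names the 3 tested genes with the largest mean size of change over both passages at a mean of at least 5 CPM (any tested Krüppel-like or Sp gene may be named), and the 3 nearest profiles each of *Klf2*, *Klf4* and *Klf5* among genes with a mean of at least 10 CPM. Promoter windows are from RefSeq, on the build GRCm38.p6.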

Additional observations from a re-analysis of the deposited data

Results flagged for a closer look

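A difference between the state effects at P5 and P15, by the interaction test at an adjusted p under 0.01, marked 7 genes for a closer look. On the log2 scale the effect changed by 0.63 for *Klf4* and 0.44 for *Klf6*, and by -1.31 for *Klf5*, -0.93 for *Klf7*, -0.70 for *Klf11*, -0.67 for *Klf9* and -0.28 for *Klf3*. The value of *Klf6* was 0.21 (adjusted p = 0.106) with the median fibroblast marker share subtracted, and that of *Klf3* was kept in 5 of 15 alternatives.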

How the results depend on the processing

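Over the 10 genes and 5 comparisons, 650 alternative values were computed, of which 603 kept their direction and their side of the threshold, 36 lost a call, 7 gained one and 4 turned their sign. For *Klf13* at P15 the value was 0.052 with library size alone and ranged from -0.11 to 0.028 when 1 library was left out, and for *Klf13* in naïve cells at P15 against P5 it ranged from -0.063 to 0.022. The count of genes higher in primed cells at P5, 2 in the report, was 1 with DESeq2's size factors, with all 8 libraries in one fit and with the replicate block, 0 without a low-count filter and 0 with DESeq2's Wald test, and 0 to 1 with 1 library left out. The count of genes whose state difference was higher at P15 was 1 with the median feeder share subtracted. In naïve cells, P15 against P5, 3 genes were called without a low-count filter and 0 of them were higher, and with 1 library left out 0 to 1 were higher. With the longest transcript as length, *Klf2*, *Klf4* and *Klf5* made up 67.1% (naïve) and 27.0% (primed) of the summed level at P5, and 68.2% and 27.5% at P15. The cause was not tested. Where a library was left out, the lone library is assumed to vary like the other groups.

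No label ties same-numbered replicates. The correlations of their deviations at P5 and P15 were -0.13 and -0.19 between the states. They were 0.16 between the passages of naïve cells and 0.16 between those of primed cells. Deviations were thus related in part between libraries, which fits without a block leave out, and the source was not tested. Under the replicate block, 3 calls of members changed across all comparisons, with *Klf13* at P5 and the difference of *Klf3* lost and *Klf10* gained in naïve cells, and no other. Over all genes the replicate block gave 10225 calls at P5 and 7836 at P15, and crossed pairs gave 10675 and 9477. Without a block there were 10274 and 8899. In naïve cells, P15 against P5, 1446 genes were called in all, 551 without a low-count filter, 891 with the median feeder share subtracted and 2783 with the replicate block. With library size alone the median log2 fold change of all genes was 0.21 at P5, 0.10 at P15, -0.11 for the difference and -0.13 in primed cells across passages, and of the genes called 65.8% in place of 50.1% were higher at P5, 35.2% in place of 55.0% for the difference and 34.2% in place of 51.5% in primed cells. With 14378051 to 20985136 counts per library, 3 counts amount to at most 0.221 CPM, below every member's level.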
